A study of Mus musculus with 14 samples.

Results

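Interferon-stimulated genes were followed through osteoblasts and endothelial cells sorted from mouse bone marrow, with and without G-CSF, a growth factor that expands neutrophils and mobilises haematopoietic stem cells into the blood. The set held 35 named genes, 25 of which respond mainly to type I interferon and 10 mainly to type II interferon. A gene was measured where a probe set carried its symbol alone, and the probe set with the highest mean over 14 arrays stood for the gene. This gave 33 measured genes, 23 type I responsive and 10 type II responsive, among 18193 genes with such a probe set. All 33 passed the filter on dim probe sets, which kept 13453 genes. Isg15 was not measured because its only probe set also carries another symbol, and Ifi44 had no probe set of its own.

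Type I interferons (alpha and beta) bind the receptor made of Ifnar1 and Ifnar2, and through Jak1 and Tyk2 they activate a complex that includes Stat2 and Irf9 and binds the interferon-stimulated response element (ISRE). Type II interferon (gamma) binds Ifngr1 and Ifngr2, and through Jak1 and Jak2 it leads to binding at the gamma-activated site (GAS). The products of type I responsive genes block viral entry, translation, replication and budding, while many type II responsive genes encode GTPases against intracellular pathogens and parts of the antigen presentation machinery. The 2 programmes overlap, so the division used here is one of main response.

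All mice were wild type C57BL/6J carrying pOBcol2.3-GFP, a transgene in which a type I collagen promoter fragment drives GFP in osteoblasts, and were 6 to 8 weeks old. Stromal cells were freed by digesting the tissue serially with collagenase. The osteoblast sort was CD45- ter119- CD31- GFP+, and the endothelial sort was CD45- ter119- GFP- CD31+. Treated mice received G-CSF at 250 ug/kg under the skin for 5 days according to the titles, and untreated mice received vehicle alone. The protocol text gives 5 days for the treated arrays and 7 days for the untreated ones. The osteoblast sort had 3 untreated and 3 G-CSF arrays, the endothelial sort had 4 and 4, and the labels do not say whether replicates came from separate animals, so p-values may reflect technical spread alone. Precision is limited by how many arrays each group has.

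All levels below are log2(intensity + 16). The 12 endothelial markers (Cdh5, Pecam1, Kdr and others) averaged 12.50 to 12.93 on the endothelial arrays and 8.37 to 9.42 on the osteoblast arrays, and all 12 were called higher in the endothelial sort. The 9 measured osteoblast markers averaged 12.36 to 14 on the osteoblast arrays and 8.59 to 12.69 on the endothelial arrays, so collagen and other osteoblast transcripts were present in both sorts. Untreated osteoblast replicate 2 stood apart. Its 12 neutrophil markers averaged 13.63, against 10.99 and 10.68 on the other 2 arrays of its group, and its 16 monocyte and macrophage markers averaged 10.58, against 7.62 and 7.64. Untreated endothelial replicate 1 carried muscle transcripts (12 markers at 12.93, against 7.67 to 9.16 in the rest of its group). Neutrophil markers averaged 12.94 to 13.75 on the G-CSF osteoblast arrays, 12.01 to 12.84 on the untreated endothelial arrays and 12.92 to 13.71 on the G-CSF endothelial arrays. Results that rest on the 2 arrays that stand apart are given with and without them. In bulk RNA of a sort, fewer cells of a type and less RNA per cell cannot be told apart.

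The promoters of several members hold letters that match the elements of the 2 responses. RefSeq windows on mouse build GRCm38.p6, from 250 bases before to 50 bases after the transcription start, were found for 27 of the 35 genes. The ISRE core GAAANNGAAA, searched on both strands with overlapping matches allowed, was in the windows of 15 of 27 members, 11 of 18 type I responsive and 4 of 9 type II responsive, against 3.99% of all 27025 genes counted the same way (3.44% of all 32851 windows). The GAS letters TTCNNNGAA, which read the same on both strands, were in the windows of 8 of 27 members, 4 of 18 type I responsive and 4 of 9 type II responsive, against 9.55% of all genes (8.3% of all windows). A match is a description of letters and not a binding site. The windows below were chosen to show the ISRE core in type I responsive genes that differed most between the sorts (Bst2, Rsad2) and in genes that did not (Ifit1) or whose osteoblast values were higher after G-CSF without passing the test (Oas1a, Trim30a), and to show the ISRE core and GAS among the type II responsive genes. Capitals mark the matches of both motifs, and each window is written 5′ to 3′ on the strand of the gene.

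Bst2: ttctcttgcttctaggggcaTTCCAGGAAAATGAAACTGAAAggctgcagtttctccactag
Rsad2: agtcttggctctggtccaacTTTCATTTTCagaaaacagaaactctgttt
Ifit1: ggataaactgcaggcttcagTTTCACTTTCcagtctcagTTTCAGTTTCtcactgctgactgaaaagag
Oas1a: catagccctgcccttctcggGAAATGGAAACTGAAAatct
Trim30a: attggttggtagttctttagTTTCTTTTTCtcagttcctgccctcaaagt
Gbp2: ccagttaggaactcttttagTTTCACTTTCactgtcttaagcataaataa
Igtp: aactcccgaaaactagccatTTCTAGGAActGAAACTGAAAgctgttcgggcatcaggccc
Irf1: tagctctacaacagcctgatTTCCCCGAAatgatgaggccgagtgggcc

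These windows lie upstream of the transcription start at chr8:71537567-71537628 on the minus strand for Bst2, chr12:26456543-26456592 on the minus strand for Rsad2 and chr19:34640765-34640833 on the plus strand for Ifit1. Those of Oas1a and Trim30a are at chr5:120907526-120907565 and chr7:104465200-104465249, both on the minus strand. The windows of Gbp2, Igtp and Irf1 are at chr3:142620584-142620633, chr11:58199491-58199551 and chr11:53769904-53769952, all on the plus strand. Bst2 held a GAS match 136 bases before the start that overlaps the first of its 2 ISRE cores. Ifit1 held 2 ISRE cores, 104 and 85 bases before the start, and Oas1a held 2 that overlap, 20 and 14 bases before it. Igtp held a GAS match 45 bases before the start beside an ISRE core at 34, and Irf1, itself a transcription factor of the type II response, held a GAS match at 90. Psmb9 and Tap1, which encode a proteasome subunit and a peptide transporter subunit, are divergent neighbours whose windows share 275 bases on opposite strands, with neither motif in them. Of the 20 genes that were higher in the untreated endothelial sort, as described next, 14 had a window and 9 of these held the ISRE core. Of the other 13 measured genes 11 had a window and 5 held it.

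The endothelial sort of untreated mice carried more interferon-stimulated RNA than the osteoblast sort. Of the 33 genes, 20 were higher in the untreated endothelial sort and 0 were lower, at an adjusted p under 0.05 in limma with Benjamini-Hochberg adjustment over all 13453 genes. Among all genes tested 12.8% were called higher and 13.6% lower. The median difference of the members was 1.11 on the log2 scale, against 0 over all genes. It was 1.03 for the 23 type I responsive genes, 14 of them called, and 1.15 for the 10 type II responsive genes, 6 of them called. In the 20 called genes, and in no other member, every untreated endothelial array lay above every untreated osteoblast array, a separation seen in 15.9% of all genes. The genes had been chosen with an earlier interferon result of these arrays known, so the direction is not independent evidence. Of the 20 calls, 19 held when each array was left out in turn, and that of Oasl2 was lost without untreated osteoblast replicate 1 or 2 (adjusted p up to 0.0592). The sorts also differed in technical measures. The ratio of 3′ to 5′ actin probe sets, which rises as RNA degrades, ran from 3.83 to 11 on the untreated osteoblast and from 3.01 to 6.57 on the untreated endothelial arrays. The same ratio for Gapdh ran from 8.43 to 13 on the untreated osteoblast and from 9.61 to 20.9 on the untreated endothelial arrays. The part of these ratios in the result was not tested. The deposited values of 4 osteoblast arrays carry 7 decimals and those of all other arrays 1. With this as a batch term 19 members were called, 17 of them among the 20. Each osteoblast group has 1 array of the second kind, too few to compare within it. Of all calls in this comparison 48.5% were higher, and 67.5% were when arrays were centred on their medians, which gave 21 members.

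**Figure D1:**
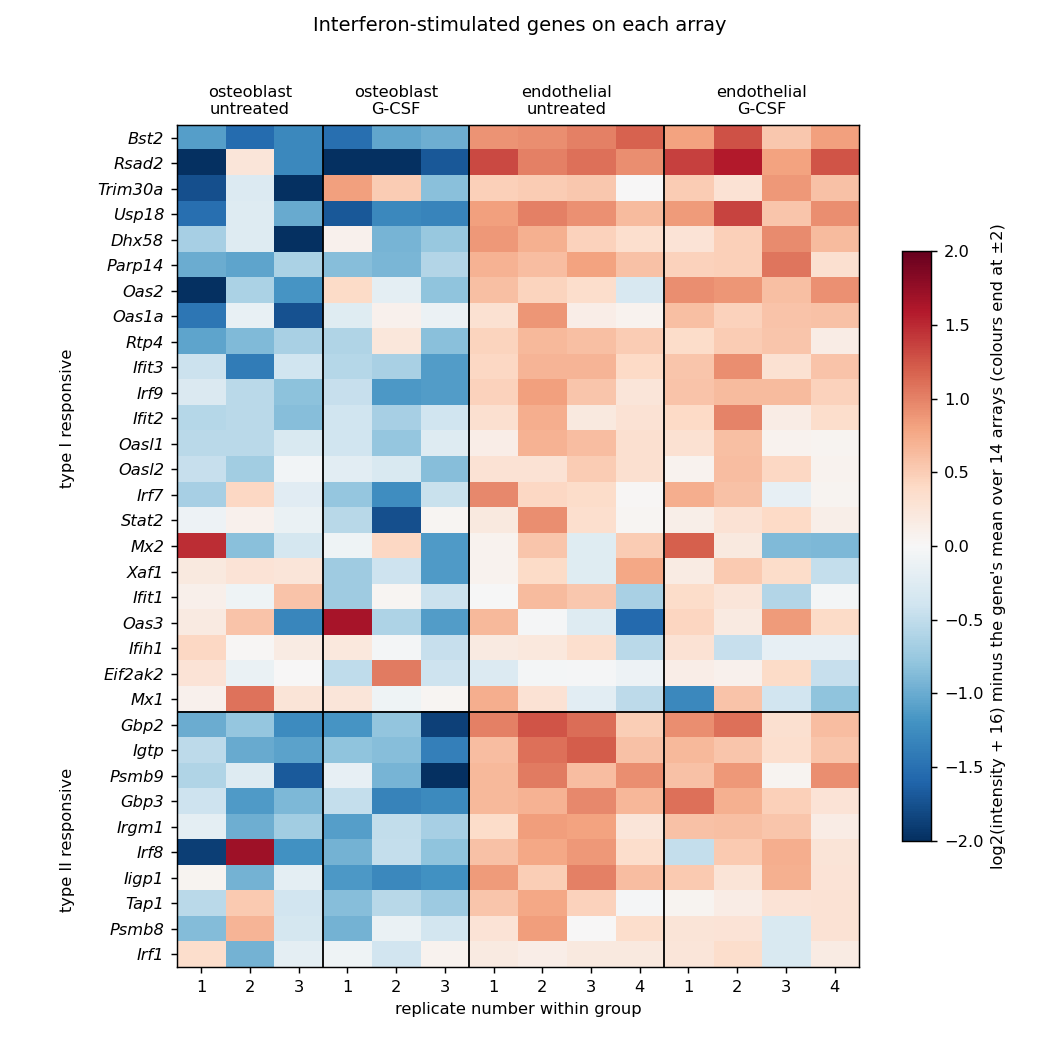
Each cell shows the log2 level of 1 gene on 1 array minus that gene's mean over the 14 arrays, with type I responsive genes above the black line and type II responsive genes below it, each ordered by the untreated difference between the sorts. The 20 called genes are mostly blue on the 6 osteoblast arrays and red on the 8 endothelial arrays, while Ifit1, Ifih1, Eif2ak2, Mx1 and Mx2 show no such split.

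Among the antiviral effectors of the type I response, Bst2 (Entrez 69550), the tetherin that holds budding virions at the cell surface, had the largest difference. It read 8.36, 7.91 and 8.17 on the untreated osteoblast arrays and 10.36, 10.38, 10.46 and 10.63 on the untreated endothelial arrays, a gap wider than the spread within either group. The difference was 2.31 ± 0.21 (SE), or 4.96-fold (adjusted p = 1.64e-06, limma). Rsad2 (Entrez 58185), viperin, an enzyme that makes a chain-terminating nucleotide, read 9.34, 12.02 and 10.49 in osteoblasts and 13.09, 12.78, 12.88 and 12.71 in endothelial cells. Its osteoblast arrays were widely spread, with replicate 2 the highest, but none reached the lowest endothelial array. The difference was 2.25 ± 0.42, or 4.74-fold (adjusted p = 0.00112).

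The Ifit genes, whose products bind foreign RNA and block its translation, were not all called. Ifit3 read 8.82, 7.86 and 8.86 in untreated osteoblasts and 9.66 to 9.94 in untreated endothelial cells (difference 1.28 ± 0.25, adjusted p = 0.00161). Ifit2 was higher by 1.03 ± 0.22 (adjusted p = 0.00263). Ifit1 read 7.57, 7.37 and 8.04 in osteoblasts and 7.46, 8.09, 8.01 and 6.81 in endothelial cells, which overlap fully. Its difference was -0.07, with a 95% interval of -0.79 to 0.66.

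The Oas family, sensors of double-stranded RNA that activate RNase L, and its Oasl relatives were called in part. Oas2 (1.54 ± 0.33), Oas1a (1.46 ± 0.31), Oasl1 (0.90 ± 0.23) and Oasl2 (0.76 ± 0.22) were called higher in the endothelial sort, with adjusted p from 0.00267 to 0.0173. Oas1a read 7.92, 9.21 and 7.62 on the osteoblast arrays against 9.43 to 10.25 on the endothelial ones. Oas3 scattered from 5.41 to 7.29 in osteoblasts and from 5.17 to 7.37 in endothelial cells, and its interval of -1.46 to 1.24 leaves its difference unresolved. Mx1 and Mx2, dynamin-like GTPases that trap viral nucleocapsids, and Eif2ak2, the kinase PKR that stops translation, were not called (differences -0.41, 0.12 and -0.16). The laboratory strain C57BL/6 is known to carry a defective Mx1 gene.

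Regulators of the type I response were also higher in the endothelial sort, though not all of them. Irf9 (Entrez 16391), the DNA-binding subunit of the ISRE complex, read 9.74, 9.49 and 9.21 in untreated osteoblasts and 10.50, 10.85, 10.59 and 10.28 in untreated endothelial cells (difference 1.07 ± 0.21, adjusted p = 0.00145). Usp18 (Entrez 24110), which removes Isg15 from proteins and restrains the type I receptor, read 7.60, 8.85 and 8.09 against 9.93, 10.11, 10.02 and 9.74 (difference 1.77 ± 0.27, adjusted p = 0.000198). Stat2 differed by 0.43 (interval -0.32 to 1.17), and Irf7, the master regulator of type I interferon production, by 0.60 (interval -0.07 to 1.26), and neither was called. Without untreated osteoblast replicate 2, where Irf7 read 9.66 against 8.59 and 9.02, Irf7 was called (adjusted p = 0.0442).

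Of the cytosolic RNA sensors 1 was called. Dhx58 (LGP2) was higher in endothelial cells by 1.62 ± 0.39 (adjusted p = 0.00594), with 7.11, 7.52 and 5.59 in osteoblasts against 8.10 to 8.63. Its other probe set above the filter differed by 0.03 (adjusted p = 0.973, limma), so the probe sets of Dhx58 disagree. Ifih1 (MDA5) overlapped between the sorts and differed by -0.15 (interval -0.67 to 0.38). Of the remaining type I responsive genes, Parp14, a mono-ADP-ribosyltransferase, read 9.77, 9.71 and 10.14 against 11.36 to 11.57, and its difference was 1.57 ± 0.20 (adjusted p = 3.18e-05). Rtp4, a receptor-transporting chaperone with antiviral activity, was higher by 1.41 ± 0.22 (adjusted p = 0.000277), and its second probe set by 1.11 without passing the test (adjusted p = 0.0524). Trim30a, a negative regulator of NF-kB signalling, was higher by 1.81 ± 0.42 (adjusted p = 0.00517), from 8.76, 10.25 and 8.27 to 10.52 to 11.05. Xaf1, a pro-apoptotic antagonist of XIAP, overlapped between the sorts, at 10.10 to 10.18 in osteoblasts and 9.67 to 10.68 in endothelial cells.

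All 10 type II responsive genes had a positive difference, and the GTPases among them were all called. Gbp2 (Entrez 14469), a guanylate-binding protein that coats pathogen vacuoles, read 9.74, 9.97 and 9.48 in untreated osteoblasts and 11.75, 12.00, 11.85 and 11.23 in untreated endothelial cells. It was 3.93-fold higher (1.98 ± 0.27, adjusted p = 7.45e-05), and its other probe set, which does not carry the mark for cross-hybridisation, differed by 2.12. Gbp3 was higher by 1.56 ± 0.25 (adjusted p = 0.000336). Of the immunity-related GTPases, which act on the same vacuoles, Igtp (Entrez 16145) read 10.77, 10.29 and 10.22 against 11.92, 12.40, 12.51 and 11.89 (difference 1.75 ± 0.21, adjusted p = 2.67e-05). Irgm1 (1.19 ± 0.24) and Iigp1 (1.11 ± 0.22) were higher with adjusted p of 0.00173 and 0.00187.

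The antigen presentation genes and the 2 transcription factors were less clear-cut. Psmb9, an inducible catalytic subunit of the immunoproteasome, was higher in endothelial cells by 1.65 ± 0.39 (adjusted p = 0.00591). Psmb8, another such subunit, and Tap1, a subunit of the peptide transporter, were not called at 0.55 and 0.58 (adjusted p = 0.237 and 0.11). Irf8, a factor of myeloid and B lineage cells as well as an interferon target, read 9.11, 12.69 and 9.78 on the untreated osteoblast arrays. Replicate 2, the array with raised leukocyte markers, was thus above all 4 endothelial arrays, which ran from 11.34 to 11.86. Irf1 differed by 0.44 (interval -0.10 to 0.98). Without untreated osteoblast replicate 2, Irf8 (difference 2.19, adjusted p = 6.84e-05), Psmb8 (0.98, adjusted p = 0.0158) and Tap1 (0.91, adjusted p = 0.00528) were called too, 9 of the 10 type II responsive genes, and 23 members in all. Calls over all genes rose as well in this setting, to 17.5% higher in the endothelial sort from 12.8%.

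Among the untreated osteoblast arrays, leukocyte markers were raised on 1 that several of these results rest on. Replicate 2 was the highest of the 3 untreated osteoblast arrays for 17 of 33 members and the lowest for 13, while it was the highest for 42.7% of all genes. Its neutrophil marker level exceeded that of every untreated endothelial array. Leaving out the 2 arrays that stand apart did not even out these markers between the sorts. Then 9 of 12 neutrophil markers were called higher in the untreated endothelial sort (median difference 1.61), against 0 with all arrays. Of the 16 monocyte and macrophage markers 10 were called higher (median 1.46), against 1 with all arrays. In that setting 2112 of all 13455 genes were called higher. The part of leukocyte RNA in the differences between the sorts was not tested.

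The comparison was repeated in separate arrays, those of G-CSF mice. Here 22 of 33 members were higher in the endothelial sort and 0 lower, 15 type I and 7 type II responsive, where 14.4% of all genes were called higher and 17.5% lower. The median difference was 0.99, and it was 0.90 for type I and 1.38 for type II responsive genes (-0.02 over all genes). With the decimals as a batch term 16 members were called, 15 of them among the 22. Of all calls 45.2% were higher, and 73.2% were with arrays centred on their medians, which gave 24 members. The actin ratio ran from 2.71 to 10.5 on the G-CSF osteoblast and from 2.62 to 3.76 on the G-CSF endothelial arrays, and the Gapdh ratio from 5.88 to 20.8 and from 8.95 to 12.1. Of the 22 genes, 18 were also called in untreated mice. Oas1a and Trim30a were called in untreated mice alone, and Xaf1, Irf7, Stat2 and Tap1 in G-CSF mice alone. The groups did not overlap in 22 members, against 18% of all genes. These were 14 type I and 8 type II responsive genes, so they are not the same 22 as the called ones. In 16 members all 8 endothelial arrays lay above all 6 osteoblast arrays, against 9.11% of all genes. These 16 were Ifit2, Ifit3, Irf9, Oasl1, Oasl2, Rsad2, Usp18, Dhx58, Bst2, Parp14, Gbp2, Gbp3, Igtp, Iigp1, Irgm1 and Psmb9.

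**Figure D2:**
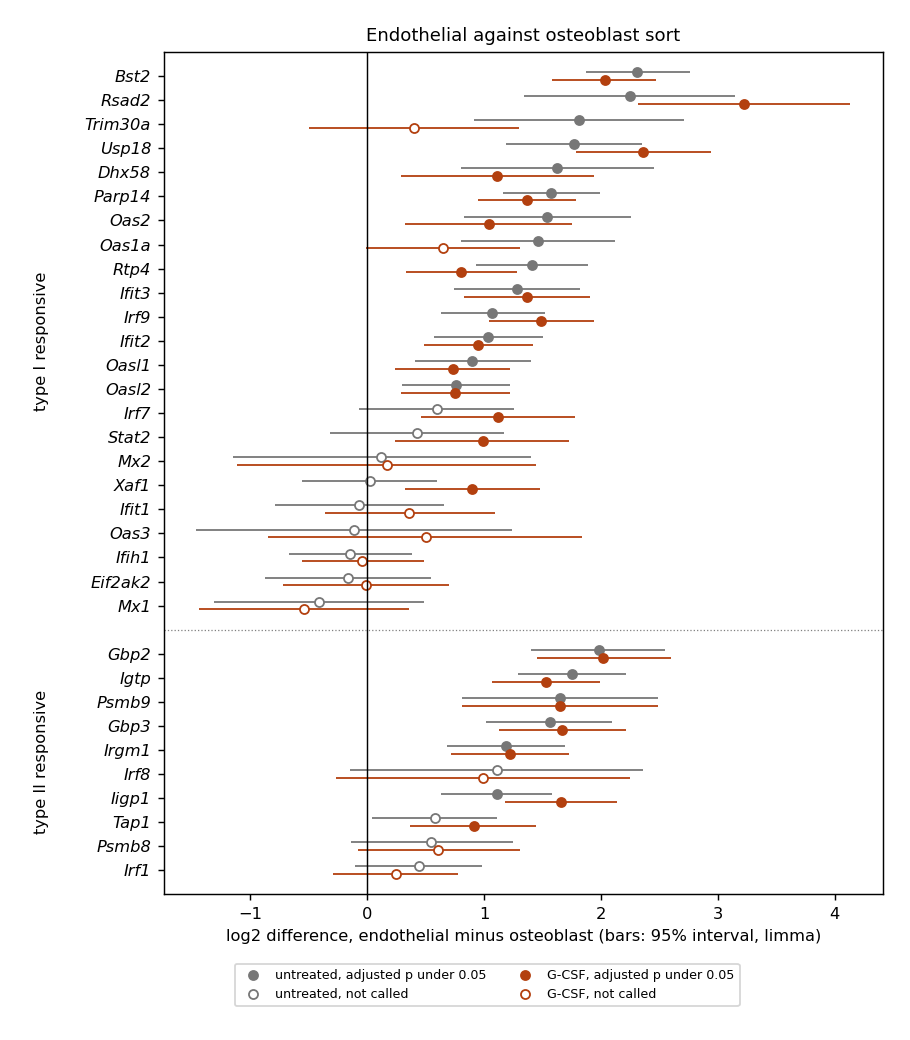
Points are the log2 difference between the endothelial and the osteoblast sort for each member in untreated (grey) and G-CSF (red) mice, bars are 95% intervals from limma, and filled points have an adjusted p under 0.05. Rsad2 moved furthest to the right in G-CSF mice (3.22), Trim30a stands at 1.81 untreated and 0.40 in G-CSF mice, and no filled point lies left of 0.

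Rsad2 had the largest difference after G-CSF. It read 9.69, 9.64 and 10.08 on the G-CSF osteoblast arrays and 13.14, 13.36, 12.57 and 13.03 on the G-CSF endothelial arrays, with no array between 10.08 and 12.57. The difference was 3.22 ± 0.42, or 9.33-fold (adjusted p = 3.74e-05). Usp18 followed at 2.36 ± 0.27 (adjusted p = 9.92e-06), then Bst2 at 2.03 ± 0.21 (adjusted p = 3.7e-06) and Gbp2 at 2.02 ± 0.27 (adjusted p = 4.23e-05).

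The 4 genes called in G-CSF mice alone had lower mean osteoblast levels there than in untreated mice (changes of -0.99 for Xaf1, -0.71 for Stat2, -0.67 for Irf7 and -0.59 for Tap1, none called). Xaf1 and Stat2 each had another probe set above the filter. These changed by 0.01 and 0.17 in osteoblasts and differed by 0.27 and 0.32 between the G-CSF sorts, so the probe sets of both genes disagree. Xaf1 read 9.20, 9.49 and 8.77 on G-CSF osteoblast arrays against 9.44 to 10.43 on G-CSF endothelial arrays, which overlap slightly (difference 0.90 ± 0.27, adjusted p = 0.0194). Irf7 differed by 1.12 ± 0.31 (adjusted p = 0.0121), Tap1 by 0.91 ± 0.25 (adjusted p = 0.0123) and Stat2 by 0.99 ± 0.35 (adjusted p = 0.042). The Stat2 call was lost when any of 9 of the 14 arrays was left out, all 4 G-CSF endothelial arrays and 3 untreated arrays among them. Its adjusted p was highest, at 0.236, without G-CSF osteoblast replicate 2, which read 5.38 against 6.59 and 7.17. Of the 22 calls in G-CSF mice, 14 held when each array was left out in turn. The other 8 (Irf7, Stat2, Oas2, Oasl1, Oasl2, Dhx58, Xaf1 and Rtp4) were lost for at least 1 array, which for each of them included G-CSF osteoblast replicate 2 or 3, with adjusted p up to 0.236. Oas1a differed by 0.65 ± 0.31 (adjusted p = 0.129) and Trim30a by 0.40 ± 0.42 (adjusted p = 0.519). The other probe set of Trim30a above the filter differed by 0.90 in G-CSF mice and by 1.52 in untreated mice. A call in 1 comparison and not in the other does not show that the differences themselves differ. The direct test of that, given with the G-CSF results, called no gene.

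The question of the study was what G-CSF does to these cells. In neither sort did any of the 33 interferon-stimulated genes pass the test for a change with G-CSF (adjusted p under 0.05, limma). In osteoblasts 0.186% of all genes were called higher and 0.0446% lower, and in endothelial cells 0.453% were called higher and 1.14% lower. An unadjusted p under 0.05 was reached by 6 of 33 members in osteoblasts and 0 of 33 in endothelial cells. Over all 13453 genes it was reached by 1191 in osteoblasts and 1765 in endothelial cells. The difference between the changes in the 2 sorts was also not called for any member, or for any gene (0% of 13453 genes). Its unadjusted p was under 0.05 for 622 of all 13453 genes and for 2 members. These were Trim30a (difference of changes -1.41, adjusted p = 0.981, limma) and Xaf1 (0.89, adjusted p = 1).

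**Figure D3:**
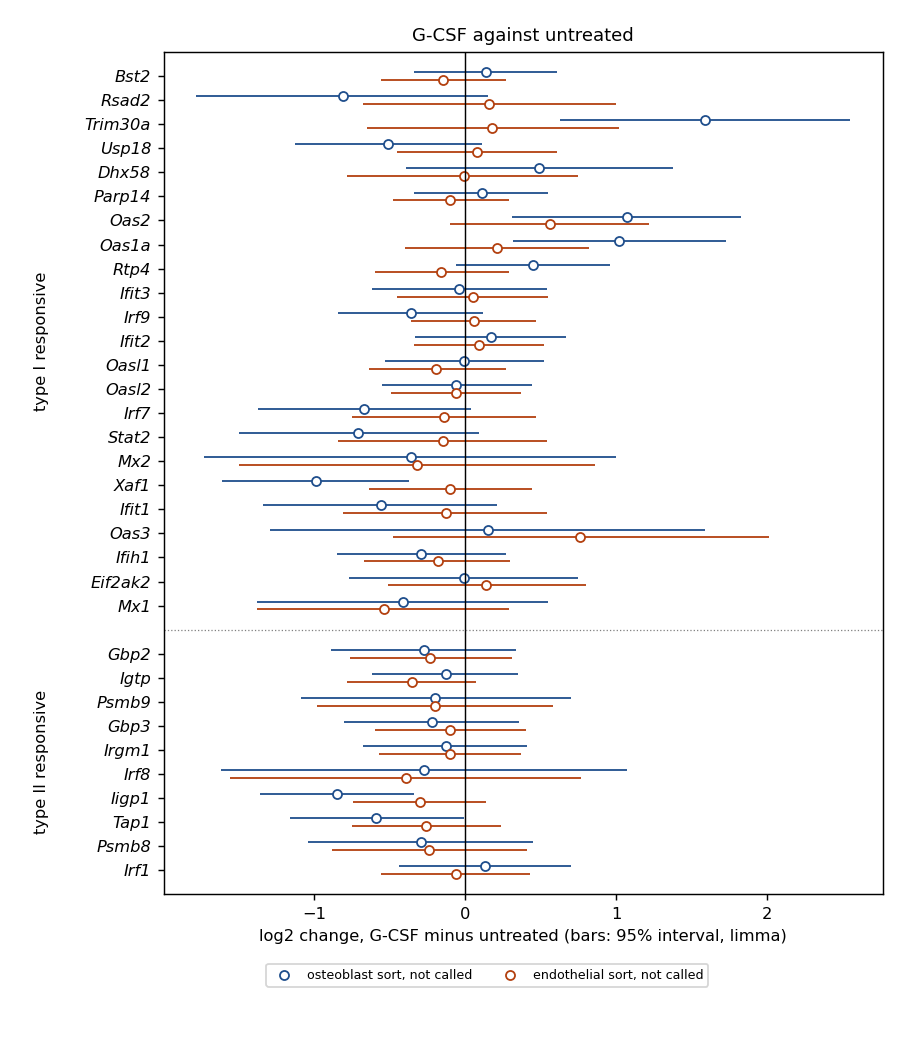
Points are the log2 change from untreated to G-CSF mice in the osteoblast (blue) and endothelial (red) sort, bars are 95% intervals from limma, and open points mark an adjusted p of 0.05 or more, which holds for all 66 points. Endothelial changes lie close to 0 with 27 of 33 intervals within 1 log2 unit of it (9119 of all 13453 genes), and the osteoblast changes range from -0.99 (Xaf1) to 1.59 (Trim30a).

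In the endothelial sort the intervals bound the change. The median change of the members was -0.10 (all genes -0.05), single changes ran from -0.54 to 0.76, and the lowest adjusted p was 0.496. For 27 of 33 members the 95% interval lay within 1 log2 unit of 0, as it did for 9119 of all 13453 genes. No member had G-CSF and untreated endothelial arrays that did not overlap, while 4.65% of all genes were separated upward and 5.62% downward. Bst2 changed by -0.15 (interval -0.56 to 0.27), Irf9 by 0.06 (interval -0.36 to 0.47) and Rsad2 by 0.16 (interval -0.68 to 1.00). All 10 type II responsive genes had a change below 0, from -0.39 to -0.06, with none called. The common sign of the 10 genes held with quantile normalisation. When every array was centred on its median, 3 of the 10 turned positive, and the median change of all genes moved from -0.05 to 0.13.

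In the osteoblast sort the intervals were wider, with 15 of 33 within 1 log2 unit of 0 (7950 of all 13453 genes). The median change was -0.20 (all genes -0.04), with -0.04 for type I and -0.25 for type II responsive genes. Of the members, 3 had G-CSF arrays all below the untreated arrays (5.69% of all genes) and 0 had them all above (3.61% of all genes). Xaf1 read 10.10, 10.18 and 10.15 untreated and 9.20, 9.49 and 8.77 after G-CSF, a change of -0.99 ± 0.29 (adjusted p = 0.252, limma). The other probe set of Xaf1 above the filter changed by 0.01 (adjusted p = 0.997, limma). Iigp1 (Entrez 60440) read 11.87, 10.87 and 11.63 untreated and 10.67, 10.53 and 10.61 after G-CSF, a change of -0.85 ± 0.24 (adjusted p = 0.231, limma). Tap1 read 9.14, 10.21 and 9.29 against 8.82, 9.12 and 8.95 (-0.59 ± 0.27, adjusted p = 0.543).

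The type I responsive genes Trim30a, Oas1a and Oas2 had higher osteoblast values after G-CSF without passing the test. Trim30a read 8.76, 10.25 and 8.27 untreated and 11.33, 11.03 and 9.68 after G-CSF (1.59 ± 0.45, adjusted p = 0.239). Its other probe set above the filter changed by 1.08 (adjusted p = 0.383, limma). Oas1a read 7.92, 9.21 and 7.62 against 9.12, 9.44 and 9.25 (1.02 ± 0.33, adjusted p = 0.309), and Oas2 read 6.36, 7.72 and 7.17 against 8.74, 8.16 and 7.55 (1.07 ± 0.36, adjusted p = 0.327). In each of them replicate 2 was the highest untreated array and overlapped the G-CSF arrays. Rsad2 had a negative change, from 9.34, 12.02 and 10.49 to 9.69, 9.64 and 10.08, and its change of -0.81 shrank to -0.11 without replicate 2.

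Leaving out 1 array at a time changed the osteoblast count for untreated osteoblast replicate 2 and for no other array. Without it, 4 members passed the test, Oas1a (1.50, adjusted p = 0.00228), Oas2 (1.39, adjusted p = 0.0454) and Trim30a (2.17, adjusted p = 0.00383) upward and Iigp1 (-1.15, adjusted p = 0.00463) downward. Calls over all genes rose too, from 0.186% to 3.16% higher and from 0.0446% to 0.349% lower, so genes outside the set gained calls as well. The members called were 3 of 33 higher and 1 of 33 lower. Without both arrays that stand apart there were 3, Oas1a, Trim30a and Iigp1 (2.85% of all genes higher and 0.32% lower). The neutrophil markers moved with Trim30a, Oas1a and Oas2 in this sort, since they averaged 10.99, 13.63 and 10.68 in untreated and 13.75, 13.57 and 12.94 in G-CSF osteoblasts. All 12 had a positive change with a median of 1.74, and none was called. The monocyte and macrophage markers ran from 7.62 to 10.58 in untreated and from 8.84 to 9.85 in G-CSF osteoblasts. The part of these cells in the 3 genes was not tested. Iigp1 and Xaf1 had negative changes in this sort. So did all 9 B lineage markers (median -1.33) and all 5 erythroid markers (median -2.38), with none called, while the neutrophil markers had positive ones. The part of any of these cells in the changes of Iigp1 and Xaf1 was not tested.

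**Figure D4:**
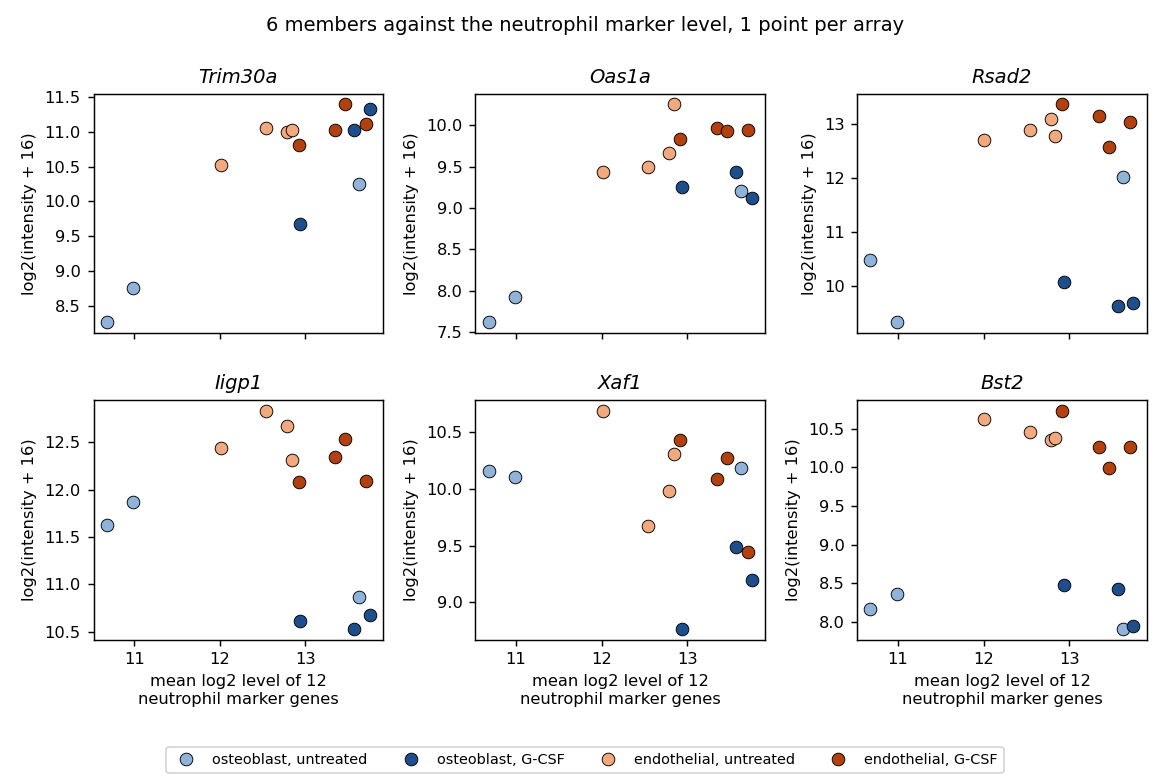
Each point is 1 array, with the mean log2 level of 12 neutrophil marker genes on the horizontal axis and the log2 level of the member on the vertical axis. In the osteoblast sort Trim30a and Oas1a are lowest on the 2 untreated arrays at 10.68 and 10.99, Iigp1 is highest on them, and Bst2 stays between 7.91 and 8.48 across the whole range.

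The wider pathway was examined through 3 further lists, to be read against the 12.8% of all genes called higher and 13.6% called lower, with a median of 0, in the same comparison. Of 38 other measured type I responsive genes, 18 were higher and 2 lower in the untreated endothelial sort, with a median difference of 0.85. The largest were Cmpk2, a mitochondrial nucleotide kinase that neighbours Rsad2 (2.52, adjusted p = 8.49e-06), Ly6e, an inhibitor of viral fusion (2.50, adjusted p = 0.000774), and Slfn5, a Schlafen family member (1.95, adjusted p = 0.000166). Slfn8 (-1.96, adjusted p = 5.78e-05) and Samd9l (-1.11, adjusted p = 0.0016) were lower. Of 25 other measured type II responsive genes, 11 were higher and 2 lower, with a median of 0.69. Cd274, the checkpoint ligand PD-L1, read 6.45, 6.86 and 6.40 in osteoblasts and 9.70, 9.62, 9.56 and 8.77 in endothelial cells (2.84, adjusted p = 1.54e-05). Ido1, which degrades tryptophan, was higher by 2.54 (adjusted p = 3.88e-05) and Icam1, a leukocyte adhesion molecule, by 2.15 (adjusted p = 7.92e-05). Serping1, the C1 inhibitor, was lower by 2.17 (log2 difference -2.17, adjusted p = 7.01e-05).

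**Figure D5:**
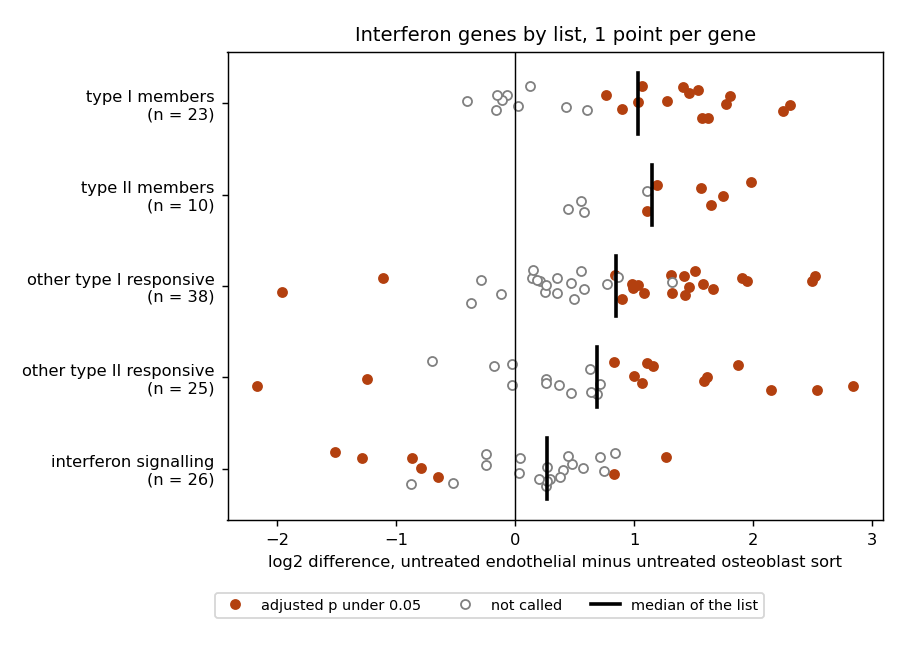
Each point is 1 gene, placed by its log2 difference between the untreated endothelial and the untreated osteoblast sort, with the list median as a black bar and genes with an adjusted p under 0.05 filled. The medians of the 4 lists of responsive genes lie between 0.69 and 1.15 and that of the 26 signalling genes at 0.26, with 2 signalling genes called higher and 5 lower.

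Most receptors and kinases upstream were not called. Of 26 measured signalling genes, 2 were higher and 5 lower in the untreated endothelial sort, with a median of 0.26, counts near the background of 12.8% higher and 13.6% lower over all genes. With quantile normalisation 2 were higher and 4 lower, with a median of 0.27 (0.10 over all genes). The balance turned when arrays were centred on their medians. Then 6 were higher and 3 lower, with a median of 0.49 (0.23 over all genes). The type I receptor chains Ifnar1 (0.03, adjusted p = 0.94) and Ifnar2 (0.48, adjusted p = 0.0813) were not called, nor were Ifngr1 (0.75), Jak1 (0.71) and Tyk2 (0.29). Ifngr2, the signalling chain of the type II receptor, was lower in endothelial cells (-1.29, adjusted p = 0.00549), as were Jak2 (-0.65, adjusted p = 0.0273), the kinase Ikbke (-1.52, adjusted p = 0.0221) and Pias1, a SUMO ligase (-0.87, adjusted p = 0.004). Il10rb, a receptor chain shared by interferon lambda, was higher (1.27, adjusted p = 0.00018).

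Under G-CSF the further lists had few calls. Cxcl9, a chemokine induced by interferon gamma, read 9.46, 9.48, 10.27 and 9.38 on untreated and 9.06, 8.67, 8.40 and 8.22 on G-CSF endothelial arrays, without overlap. It fell by 1.06 on the log2 scale (adjusted p = 0.0496), and its osteoblast change was -1.35 (adjusted p = 0.0816). Without untreated osteoblast replicate 2 the osteoblast change was called (-1.58, adjusted p = 0.00693), as it was without both arrays that stand apart (adjusted p = 0.0107), where the endothelial change was not (-1.12, adjusted p = 0.0506). The endothelial call was lost when any of 11 of the 14 arrays was left out, with an adjusted p up to 0.17 without untreated endothelial replicate 3 (change -0.85), and when arrays were centred on their medians (-0.88, adjusted p = 0.0988). Markers of other cells had lower values on the same arrays. The 9 osteoblast markers averaged 10.85 to 12.69 on untreated and 8.59 to 11.57 on G-CSF endothelial arrays (median change -2.01, 1 called lower), and the 9 B lineage markers 7.83 to 9.77 and 6.29 to 8.07 (-1.95, none called). The 5 erythroid markers ran from 9.93 to 11.03 and from 7.47 to 9.86 (-2.49, 1 called lower), and the 6 plasmacytoid dendritic cell markers from 7.70 to 8.35 and from 6.57 to 7.49 (-1.07, none called). The 12 muscle markers had a median change of -1.62, with none called. The part of these cells in the Cxcl9 result, and in the endothelial changes of the members, was not tested.

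Myd88, the adaptor of Toll-like receptors that feeds interferon production, rose in endothelial cells from 10.87, 10.85, 11.28 and 10.97 to 12.14, 12.09, 12.27 and 12.20 (1.18, adjusted p = 0.0017). In osteoblasts it rose from 10.86, 10.91 and 11.09 to 12.11, 11.81 and 11.67 (0.91, adjusted p = 0.0498). The endothelial call held with each of the 14 arrays left out in turn. The osteoblast call held without untreated osteoblast replicate 2 and was lost for each of the other 13 arrays, with an adjusted p up to 0.166. Neutrophil markers had higher values on the same arrays, with a median change of 0.80 in endothelial cells and 1.74 in osteoblasts and none called, and their part in the Myd88 result was not tested.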

How the data were processed

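Total RNA (100 ng, extracted with Trizol) was measured on 14 Affymetrix arrays of 45101 probe sets. The deposited values are intensities on a linear scale, made by the authors with Affymetrix Expression Console 1.1, per the submitters' processing notes. How probes were summarised is not given in the sources used here. A trimmed mean of 500 on all 14 arrays shows that the values had been scaled, so no further normalisation was applied. Each deposited intensity was turned into log2(intensity + 16). Probe sets with several symbols (945) or none (9211) and the dimmest 33.3% were left out, which left 13453 genes. A single model with 4 group means over the 14 arrays was tested in limma 3.58.1 (R 4.3.3, trended prior, 2-sided), with Benjamini-Hochberg adjustment over all genes, and the script was checked on data with known changes. A call is an adjusted p under 0.05.

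Named genes were all members, up to 4 called genes of each further interferon list with the largest change, and the main receptors and kinases. Samd9l was named after its value was seen. The members and lists were chosen with earlier results of these data known. Replicate numbers from the titles were checked for pairing. The deviations of same-numbered untreated and G-CSF arrays from their group means correlated by 0.223, 0.288 and 0.315 for the osteoblast sort. For the endothelial sort the correlations were 0.239, 0.377, 0.281 and 0.102. All exceed the minimum set for pairing, so the numbers served as a block in an alternative. Other alternatives changed the pseudocount, scaling, filter, probe sets, prior, threshold and arrays used. Promoter windows came from RefSeq (GRCm38.p6).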

Additional observations from a re-analysis of the deposited data

Results flagged for a closer look

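Within groups of 4 endothelial arrays, 1 array lay far from the other 3 in 5 of 66 group and gene combinations, where chance flags about 1 in 20 groups. Oas2 read 8.95 on G-CSF replicate 3, against 9.23 to 9.29 on the others. Psmb8 read 9.14 on the same array, against 9.70 to 9.72. Irgm1 read 10.01 on G-CSF replicate 4, against 10.42 to 10.47. Trim30a read 10.52 on untreated replicate 4, against 11 to 11.05, and Gbp3 read 11.28 on untreated replicate 3, against 10.96 to 11.01. All of these genes but Psmb8 were called between the untreated sorts, and in each of those every untreated endothelial array lay above every untreated osteoblast array.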

How the results depend on the processing

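The count of members higher in the untreated endothelial sort was 20, and over all alternatives it ran from 16, when probe sets marked for cross-hybridisation were dropped and 25 members were left to test, to 23. After G-CSF it was 22 and ran from 13, at a threshold of 0.01, to 24, and from 16 to 24 when 1 array was left out. With the number of decimals in the deposited values as a batch term it was 19 untreated and 16 after G-CSF, of which 17 and 15 were also called without it. No member was called lower in either comparison under any alternative run. In osteoblasts 0 members changed with G-CSF, against 3 with array weights, 3 without the 2 arrays that stand apart, and 0 to 4 when 1 array was left out. The replicate block within each sort gave 0, and together with leaving out untreated osteoblast replicate 2, an alternative added after seeing the data, it gave 3. In endothelial cells, and for the difference between the sorts, every alternative run gave 0. The replicate block across both sorts gave 20 and 22 for the sort comparisons and changed no call count. Centring arrays on their medians shifted the median of all genes to 0.23 and 0.37 in the untreated and G-CSF sort comparisons and the share of calls that were higher from 48.5% to 67.5% and from 45.2% to 73.2%. The member medians were then 1.34 and 1.37, and 21 and 24 members were called. The median endothelial change with G-CSF turned from -0.10 to 0.08. The number of arrays, and signals near background for Mx1, Mx2 and Oas3, limit what can be resolved.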
